A study of Mus musculus with 12 samples.

Results

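Hepatocytes in which the kinase genes Mst1 and Mst2 had been deleted were compared directly with hepatocytes that expressed the YAP mutant S127A, both with 1 allele of Sox9 floxed and exposed to Cre. The comparison takes 4 of the 12 libraries of the series, 2 for each model, chosen by their labels. It was made across 10681 of 16116 gene symbols, those with a log2 value of at least 1 in at least 2 of the 12 libraries. The first group, called the YAP group, came from Sox9 fl/+ mice that received a pair of adeno-associated viruses (AAV2/8), one for Cre and one for YAP S127A joined to GFP through P2A. The second, called the Mst group, came from Sox9 fl/+ mice that also carried Mst1 fl/fl and Mst2 fl/fl, with the reporter ROSA26-lsl-TdTomato, and that received the Cre virus alone. All viruses used the TBG promoter, which is active in hepatocytes, so the deletions and the transgene are those of hepatocytes and not of the whole liver. All mice were 3 weeks old at injection. YAP-expressing cells were sorted as GFP-positive 3 weeks after injection, and Mst1/2-deleted cells as TdTomato-positive 4 weeks after injection. Both sorts excluded cells that stained for the biliary marker Epcam or the leukocyte marker CD45. The GFP controls, wild type mice for the YAP group and floxed mice without Cre virus for the Mst group, serve here only as a reference level. Libraries from mice with both Sox9 alleles floxed (Sox9 fl/fl), 2 for each model, are used where the same contrast is repeated.

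MST1 and MST2, encoded by Stk4 and Stk3, sit at the top of the Hippo kinase cascade. They activate the LATS kinases, which phosphorylate the coactivators YAP and TAZ and keep them out of the nucleus. YAP S127A lacks a main phosphorylation site and escapes this control, so 1 model removes the kinases from above endogenous YAP and the other adds an excess of a resistant form. In liver, active YAP drives hepatocytes towards biliary and progenitor gene expression and proliferation through TEAD transcription factors, and Sox9 is one of the genes that then comes on. Hepatocytes also differ by position: those near the central vein depend on Wnt signals and carry glutamine and drug metabolism, and those near the portal vein carry urea and glucose synthesis.

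Values are deposited log2 CPM, in which reads are scaled to the same total in each library before the log, and a difference is always the Mst group minus the YAP group on that scale, with ± giving its SE. Calls come from two-sided limma tests fitted on all 12 libraries, with a Benjamini-Hochberg threshold of 0.05. The linear values summed to 939484 and 938683 in the YAP libraries and to 947386 and 972612 in the Mst libraries, and 10118 to 10287 genes reached log2 1 in each of the 4. The number of reads behind each library is unknown. The YAP libraries correlated with each other with r = 0.953 across genes, the lowest of the 6 groups, and the Mst libraries with r = 0.971, where genes are not independent replicates. Between the 2 libraries of a group, 118 genes differed by more than 2 log2 units in the YAP group and 31 in the Mst group. Whether the libraries of 1 group are separate mice is not stated in the labels, so the p-values measure only how far these libraries spread, and that may be technical. In the Mst experiment the first and second libraries also had equal means over the 3 groups (within 0.05 for 99.9% of genes, against 15.6% in the YAP experiment). The deviations of its 6 libraries are thus tied to each other, and the fit treats them as separate. The deposited values had been adjusted gene by gene: the means of the control groups were equal in the 2 experiments to within a median of 0.00849. The direct contrast therefore rests on that adjustment having placed both experiments on 1 scale, which was not tested. Model, time after injection, reporter, sorted colour and experiment are 1 and the same split of the libraries and cannot be told apart.

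The targeted genes are given first. Sox9, a transcription factor of bile ducts and progenitor cells (GRCm38 chromosome 11, 112782224 to 112787760, plus strand), stood at 4.41 and 5.28 in the YAP libraries and at 6.47 and 6.0 in the Mst libraries. Both Mst libraries lay above both YAP libraries, and all 4 lay above the control mean of 3.74. The difference was 1.39 ± 0.38 and missed the threshold (limma adjusted p = 0.0612). In the Sox9 fl/fl libraries it was -1.10. Stk4, the Mst1 gene, was 4.66 and 4.71 under YAP S127A and 4.25 and 4.74 after deletion, with overlap between the groups and a difference of -0.18 ± 0.25, a value that was 0.06 without Mst library 1. For Stk3, the Mst2 gene, the YAP libraries read 3.26 and 3.61 and the Mst libraries 4.23 and 4.03. Neither kinase gene was called lower in the mutants. The panel reads 1 amplicon for each gene, and an amplicon outside the floxed exons does not check the deletion.

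Yap1 itself (chromosome 9, 7931999 to 8004596, minus strand) was 7.62 and 7.29 in the YAP group and 6.44 and 6.30 in the Mst group. The groups did not overlap, and the Mst libraries lay next to the control mean of 6.53. The difference of -1.08 ± 0.24 passed the threshold (limma adjusted p = 0.0235), a YAP level 2.11-fold higher with the transgene, and the Sox9 fl/fl libraries gave -1.05 (adjusted p = 0.0303). The call ended without YAP library 1 (-0.91), without Mst library 1 (-1.15) or without Mst library 2 (-1.01). Whether the Yap1 amplicon reads the transgene is not stated in the labels.

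Across all genes, 326 of 10681 were called (3.05%), with 179 higher after Mst1/2 deletion (1.68%) and 147 higher under YAP S127A (1.38%). Without adjustment, limma gave a p under 0.05 for 2041 of the 10681 genes, the background for such counts in the lists below. The median difference over all genes was 0.01. Among the called genes, 50 were higher and 38 lower by at least 2 log2 units. By sign alone, with a gap to the control mean of any size counted, most called genes stood on opposite sides of it in the 2 models. Calling genes by the gap between the models itself favours this, and the share over all genes was not computed. Camk2b, for example, is counted with 0.09 in the Mst group and -2.78 in the YAP group. Of the 179, 114 were above the control in the Mst group and below it in the YAP group, and 58 were above it in both. Of the 147, 114 were below the control after Mst1/2 deletion and above it under YAP S127A, 17 were above it in both and 16 below it in both. The count of calls was 82 without Mst library 2, against 323 without Mst library 1, 273 without YAP library 1 and 262 without YAP library 2. The share of calls that were higher in the Mst group was 54.9%, and the larger share turned to the YAP side without YAP library 2 or Mst library 1. The median difference over all genes was 0.08 and -0.05 without YAP library 1 and 2, and 0.06 and -0.02 without Mst library 1 and 2.

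**Figure D1:**
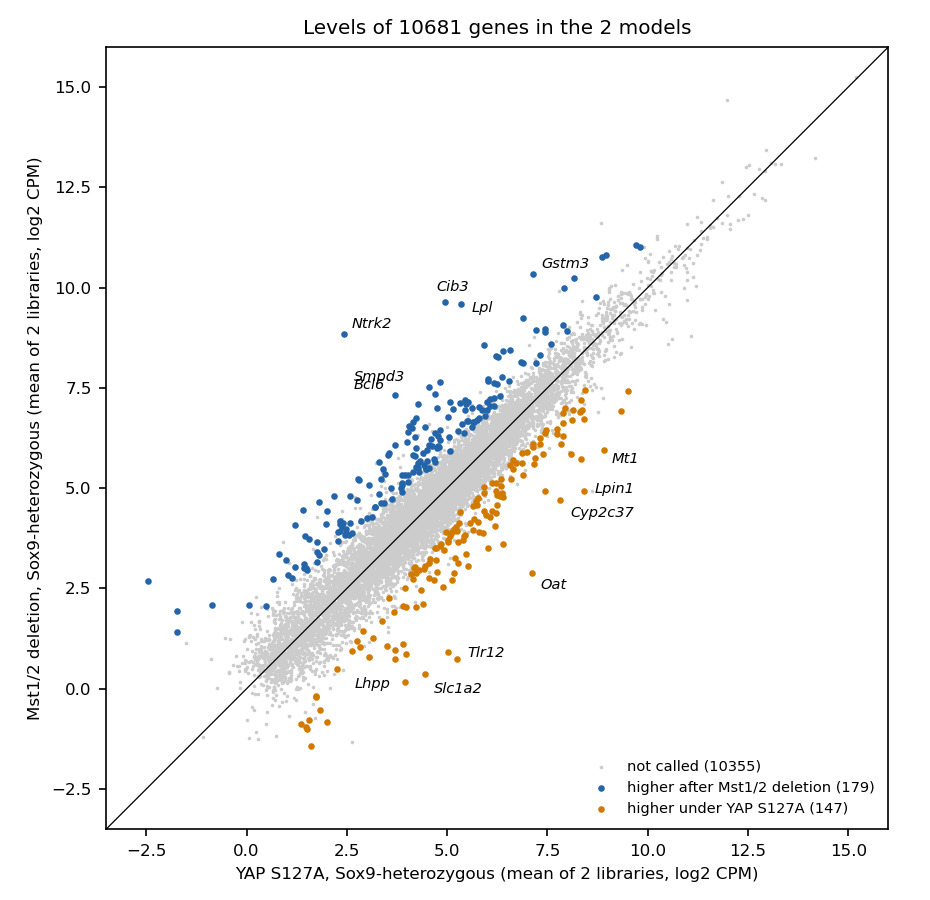
Mean level of each of the 10681 genes in the 2 YAP S127A libraries (x axis, log2 CPM) and in the 2 Mst1/2-deleted libraries (y axis, log2 CPM), all Sox9-heterozygous; blue points are the 179 genes called higher after Mst1/2 deletion, orange points the 147 called higher under YAP S127A, and the line marks equal levels. The cloud lies along the line, with a median difference of 0.01, and Ntrk2 stands farthest above it.

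The genes described next are the 16 largest called differences in each direction among genes whose higher group averaged at least 4. The largest in favour of Mst1/2 deletion was that of Ntrk2, the gene of the neurotrophin receptor TrkB (chromosome 13, 58806569 to 59133970, plus strand). Its level was 2.90 and 1.95 in the YAP libraries and 8.94 and 8.75 in the Mst libraries, with a control mean of 4.11. Each Mst library lay far above every control and YAP library, while both YAP libraries lay below the control mean. The difference was 6.42 ± 0.51 (limma adjusted p = 1.72e-05), an 85.9-fold higher level. Cib3, a calcium and integrin binding family gene, was next in this set with 5.89 and 4.00 against 9.87 and 9.43 (4.70 ± 0.74, adjusted p = 0.00285). Lpl, the lipoprotein lipase that releases fatty acids from circulating triglyceride (chromosome 8, 68880491 to 68907448, plus strand), was 5.97 and 4.71 under YAP S127A and 9.32 and 9.89 after deletion. The YAP libraries were near the control mean of 5.80 and the Mst libraries more than 3 log2 units above both of them. Its difference was 4.26 ± 0.51 (limma adjusted p = 4.84e-04), or 19.2-fold.

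Other genes of this set covered several functions. Smpd3, a neutral sphingomyelinase that makes ceramide, stood at 4.38 and 4.70 against 7.13 and 7.91. Its difference was 2.98, and the YAP libraries were close to the control mean of 4.16. Klf6, a zinc finger transcription factor induced by injury, was 5.63 and 6.21 against 8.21 and 8.90 (2.64, limma adjusted p = 4.84e-04). Both models lay above its control mean of 4.83. Osbpl3, an oxysterol-binding protein family gene, differed by 2.82. Mme, the membrane metallopeptidase neprilysin, read 4.66 and 3.87 against 6.58 and 7.60, also with a difference of 2.82. Plk2, a polo-like kinase gene, was 4.77 and 4.62 against 7.11 and 7.57 (2.64). Ptgds, a prostaglandin D2 synthase, stood at 4.14 and 3.97 against 6.47 and 6.64, above its control mean of 1.87 in both models. Bcl6, a transcriptional repressor that in liver restrains lipid genes, was 3.87 and 3.52 against 7.96 and 6.68 (3.62 ± 0.63, adjusted p = 0.00633).

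For Camk2b and Tmem51 the YAP libraries lay below the controls. Camk2b, a subunit of a calcium-dependent kinase, was 0.87 and 1.54 in the YAP libraries and 3.77 and 4.37 in the Mst libraries. The Mst libraries were at the control mean of 3.99, so the gap of 2.87 was on the YAP side. Tmem51, a transmembrane protein gene, followed the same pattern less fully, with 1.69 and 1.11 against 4.14 and 4.77 and a control mean of 3.42. Serpinb6b, a protease inhibitor gene, differed by 2.53 and stood above the control mean by 3.22 in the Mst group and 0.69 in the YAP group. Gstm3, a glutathione transferase of a family with near-identical members, differed by 3.19, with 2.21 and -0.98 against the control mean. The smaller calls among these 16 largest were Tff3 (2.84, adjusted p = 0.0454), a trefoil peptide of mucous epithelia, and Clic3 (2.62, adjusted p = 0.0456), a chloride channel family gene. Of the 16, 11 stayed called when each of the 12 libraries was left out in turn. The exceptions were Bcl6 (3.44 without YAP library 2), Gstm3 (3.43 and 2.95 without YAP library 1 and 2, 2.28 without Mst library 2), Ptgds (2.41 without YAP library 2 and 2.41 without Mst library 2), Tff3 (not called without any 1 of the 4 compared libraries, 2.28 to 3.40) and Clic3 (1.86 without YAP library 2, 1.90 without Mst library 1, 3.34 without Mst library 2). Tff3 also lost its call without either wild type control library, and Clic3 without either YAP library of the Sox9 fl/fl mice.

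On the other side, Tlr12, a Toll-like receptor gene (chromosome 4, 128615443 to 128618619, minus strand), was 5.09 and 5.4 in the YAP libraries and 1.09 and 0.40 in the Mst libraries. The control mean of 2.94 lay between the groups, so the 2 models moved away from it in opposite directions. Its difference was -4.50 ± 0.58 (limma adjusted p = 7.13e-04), a 22.6-fold higher level under YAP S127A. Oat, the ornithine aminotransferase of hepatocytes next to the central vein (chromosome 7, 132557478 to 132576398, minus strand), was 6.56 and 7.67 against 2.84 and 2.95. All 4 libraries lay below the control mean of 8.22, the Mst libraries by far the most. The difference was -4.22 ± 0.50 (adjusted p = 4.84e-04), or 18.7-fold. Slc1a2, a glutamate transporter of the same hepatocytes (chromosome 2, 102658659 to 102790784, plus strand), read 3.66 and 5.26 against 0.17 and 0.56, with a control mean of 6.42 (-4.10 ± 0.48, adjusted p = 4.84e-04). 1600002H07Rik, a gene with no assigned function here, differed by -4.12.

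Lpin1, a phosphatidate phosphatase of triglyceride synthesis that is induced on fasting (chromosome 12, 16535669 to 16610966, minus strand), was 7.67 and 9.17 under YAP S127A and 4.73 and 5.14 after Mst1/2 deletion. The Mst libraries lay below the control mean of 7.93 and the YAP libraries around it. The difference was -3.48 ± 0.39 (limma adjusted p = 4.14e-04). Axin1, a scaffold of the beta-catenin destruction complex, was 5.43 and 4.37 against 2.13 and 2.92, a difference of -2.37 (adjusted p = 0.0026) with the YAP libraries around the control mean of 4.60. Pfkfb3, which makes the allosteric activator of glycolysis, was 5.50 and 6.56 against 3.61 and 3.42 (-2.52, adjusted p = 0.0028). Irf5, an interferon regulatory factor, differed by -2.41 and Camk1d, a calcium-dependent kinase, by -2.77. Fgl1, a secreted hepatocyte protein of the fibrinogen family, differed by -2.40 and Rcan2, a regulator of calcineurin, by -2.29. Of the 16 largest differences in this direction, 8 stayed called with each of the 12 libraries left out: Tlr12, Oat, 1600002H07Rik, Slc1a2, Lpin1, Camk1d, Pfkfb3 and Axin1. Without YAP library 1 the calls of Irf5 (-2.10) and Rcan2 (-1.71) ended, without YAP library 2 that of Fgl1 (-1.78), and without Mst library 2 those of Fgl1 (-2.07) and Rcan2 (-2.18).

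**Figure D2:**
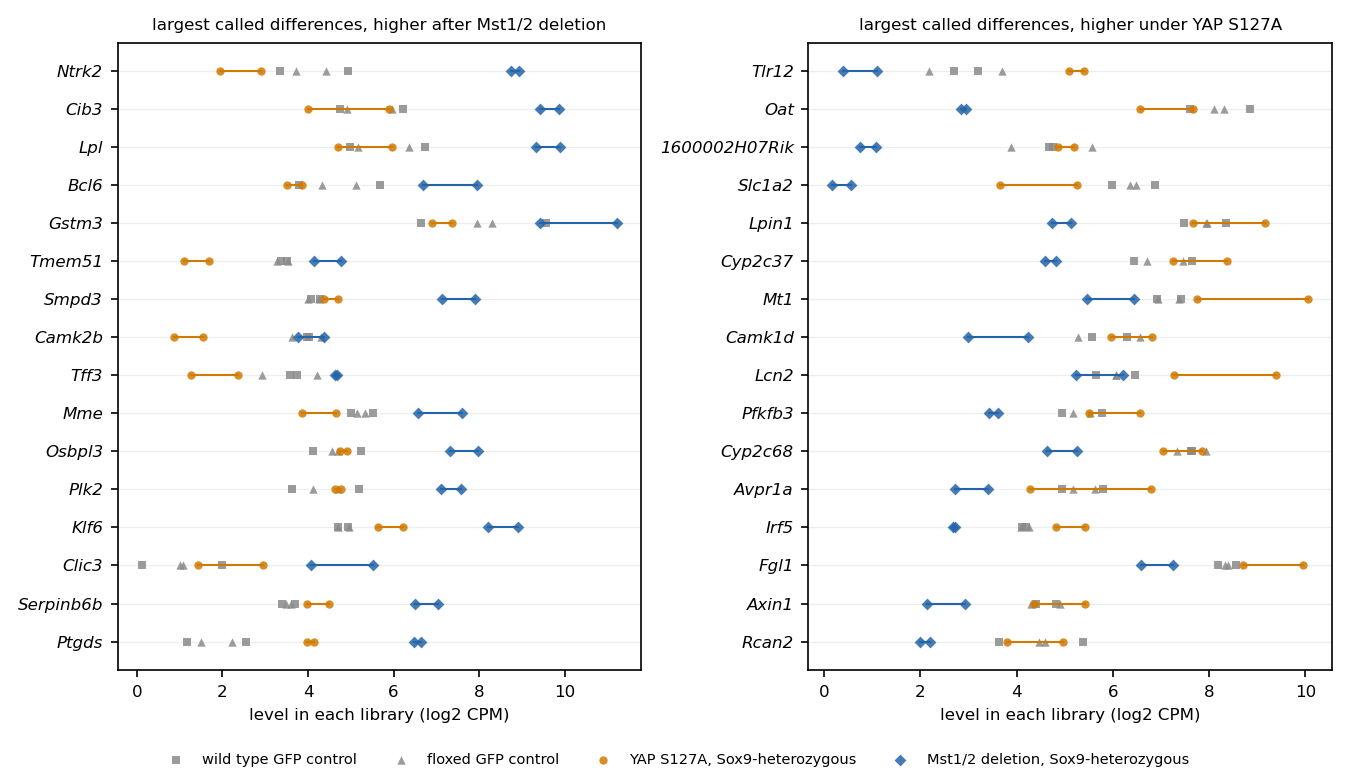
Level in each library (x axis, log2 CPM) of the 16 genes with the largest called difference in each direction, among called genes with a mean of at least 4 in the higher group; grey marks are the 4 GFP control libraries, orange circles the YAP S127A libraries and blue diamonds the Mst1/2-deleted libraries, with a line joining the 2 libraries of a group. No blue and orange line overlaps, and for Ntrk2 and Tlr12 the controls lie between the groups.

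The contrast was also computed as a difference of differences, with each group set against the controls of its own experiment. The SEs are then larger, because 4 control libraries enter with their own spread. The control means of the experiments were already equal in the deposited values, to within a median of 0.00849. Subtracting them therefore returns nearly the same differences by construction and cannot check the gene-by-gene adjustment of the values. Under that form 21 genes were called, 13 higher and 8 lower, in place of 326. That all 21 were among the 326 follows largely from the larger SEs and is not separate evidence for them. They included Ntrk2 (6.49), Lpl (4.35), Tmem51 (3.08), Smpd3 (3.01), Klf6 (2.63), Tlr12 (-4.49), Oat (-4.21), Slc1a2 (-4.08), Lpin1 (-3.51) and Lhpp (-3.79). The differences of these genes in the direct contrast were 6.42, 4.26, 3.05, 2.98, 2.64, -4.50, -4.22, -4.10, -3.48 and -3.78 in the same order.

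The 250 bases before a RefSeq start of 3 of these genes are shown, because Oat and Slc1a2 are lower together and Ntrk2 is the most different in the other direction. They are RefSeq sequences on GRCm38.p6, 5′ to 3′ on the strand of the gene. Capitals mark the TEAD core GGAATG or its reverse complement CATTCC, and the TCF/LEF core CTTTGA or its reverse complement TCAAAG. Each core was thus searched on both strands. The windows are chr7:132576399-132576648 (minus strand) for Oat, chr2:102706188-102706437 (plus strand) for Slc1a2 and chr13:58806319-58806568 (plus strand) for Ntrk2. The RefSeq starts of Oat and Ntrk2 are also the starts of the GENCODE genes given above, but that of Slc1a2 lies 47779 bases downstream of the GENCODE gene start, inside the gene.
Oat: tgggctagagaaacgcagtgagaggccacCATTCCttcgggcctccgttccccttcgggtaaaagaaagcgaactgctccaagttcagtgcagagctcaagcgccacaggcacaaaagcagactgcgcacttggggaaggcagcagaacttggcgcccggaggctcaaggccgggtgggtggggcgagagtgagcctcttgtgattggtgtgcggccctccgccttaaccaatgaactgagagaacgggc
Slc1a2: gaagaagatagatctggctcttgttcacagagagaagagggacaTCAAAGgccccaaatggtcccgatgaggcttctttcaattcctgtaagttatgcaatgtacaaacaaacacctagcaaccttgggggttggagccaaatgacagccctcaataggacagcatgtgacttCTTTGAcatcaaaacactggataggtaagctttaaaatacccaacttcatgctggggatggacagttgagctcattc
Ntrk2: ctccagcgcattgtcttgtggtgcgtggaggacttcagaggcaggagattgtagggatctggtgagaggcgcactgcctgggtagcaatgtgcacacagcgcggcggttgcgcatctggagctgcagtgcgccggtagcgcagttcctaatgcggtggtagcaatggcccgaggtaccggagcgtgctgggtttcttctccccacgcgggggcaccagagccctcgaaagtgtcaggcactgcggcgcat
The window of Oat held 1 TEAD core, 221 bases before the RefSeq start. That of Slc1a2 held 2 TCF/LEF cores, 206 and 77 bases before this internal RefSeq start, and that of Ntrk2 neither motif. Among promoters of kept genes, 10.4% held the TEAD core and 10.7% the TCF/LEF core. For genes called higher in the Mst group the shares were 10.9% and 8.00%, and for genes called lower 9.09% and 11.9%. These matches describe letters only.

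Genes of hepatocytes near the central vein held the most calls lower after Mst1/2 deletion among the functional lists. Of 26 kept members, 6 were called lower and 1 higher, against 1.38% and 1.68% of all genes, and 20 of 26 differences were negative. The median difference was -0.61, against 0.01 over all genes, and it lay between -0.91 and -0.48 under the alternatives computed for list medians. Without YAP library 1 or without Mst library 2 limma called 4 lower and 0 higher. Against the control means the median was -1.36 in the Mst group and -0.58 in the YAP group. The members called lower were Oat and Slc1a2, given above, with Lhpp, Cyp2c37, Avpr1a and Gulo, and the member called higher was Gstm3. Lhpp, a phosphohistidine phosphatase gene that lies next to Oat on chromosome 7, was 3.68 and 4.22 against 0.39 and -0.06, with a control mean of 5.16 (-3.78, limma adjusted p = 8.35e-04). Gulo, the last enzyme of vitamin C synthesis in the mouse, was 8.38 and 8.44 against 6.51 and 6.96 (-1.68, adjusted p = 0.00239). Avpr1a, a vasopressin receptor, was 6.79 and 4.27 against 2.72 and 3.41. The 2 YAP libraries of Avpr1a differed by more than the gap to the Mst group, and its difference of -2.46 was -1.20 and not called without YAP library 1. Avpr1a was also not called without Mst library 1 (-2.12), Mst library 2 (-2.81), either wild type control library or either Sox9 fl/fl YAP library (-2.46 each). Cyp2c37 (-3.12) and Cyp2c68 (-2.51), from a P450 cluster of near-identical genes whose reads may be shared, ended without YAP library 1 (-2.56 and -2.11), and Cyp2c37 also without Mst library 1 (-3.01) or 2 (-3.22).

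The markers most used for this zone did not pass. Glul, glutamine synthetase, was 6.57 and 6.95 against 5.6 and 5.76, below a control mean of 8.03 in all 4 libraries (-1.08, limma adjusted p = 0.082). Lgr5, a receptor for R-spondin and itself a Wnt target, was 2.73 and 1.44 against 0.32 and -0.27 (-2.06, adjusted p = 0.0566). Cyp2e1, an ethanol-oxidising P450, was 11.20 and 10.98 against 7.76 and 9.84 (-2.29, adjusted p = 0.108). For each of these 3 genes both Mst libraries lay below both YAP libraries. Axin2 and Tbx3, other beta-catenin targets, overlapped between the groups, with differences of -0.03 and -0.60. In the wider Wnt list of 15 kept genes, Notum, a secreted Wnt deacylase, was called lower (-1.85) and the receptor gene Fzd7 higher (1.16). Over all genes 1.38% were called lower and 1.68% higher. The median of the Wnt list was -0.10 and turned positive, up to 0.22, without YAP library 1 or Mst library 1. Notum ended without YAP library 1 (-0.97), Mst library 1 (-1.52) or Mst library 2 (-2.17), and Fzd7 without YAP library 1 (1.27), YAP library 2 (1.06) or Mst library 2 (0.87). Genes of hepatocytes near the portal vein had a median of -0.01 over 27 members, which turned positive when YAP library 2 or either Mst library was left out. Of those 27 genes, 1 was called, the lysosomal protease gene Ctsc (-2.01), where 3.05% of all genes were.

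Genes of the glucocorticoid and fasting response also held calls in that direction. Of 26 kept members, 5 were called lower and 0 higher, where 1.38% and 1.68% of all genes were. Of the 26 differences 21 were negative. Both YAP libraries lay above both Mst libraries in 16 members, against 19.6% of all genes. The median was -0.89, between -1.19 and -0.52 under the alternatives computed for list medians. Fewer members were called without YAP library 2 or Mst library 2. Against the controls the median was -0.60 in the Mst group and 0.15 in the YAP group. Beside Lpin1 the called members were Mt1, Lcn2, Tsc22d3 and Klf9. Tsc22d3, the glucocorticoid-induced leucine zipper gene, was 5.36 and 5.03 against 3.56 and 2.97, with a control mean of 5.45 (-1.92, limma adjusted p = 0.0314). Klf9, a glucocorticoid-induced transcription factor, was 8.15 and 7.61 against 6.88 and 6.39 (-1.25, adjusted p = 0.0294). The YAP libraries lay just below the control mean for Tsc22d3 and above that of 7.26 for Klf9, and the Mst libraries below it for both. The Klf9 call ended without YAP library 1 (-0.98) or Mst library 2 (-1.0). Fkbp5, a further direct target of the receptor, had the same order of libraries without a call (5.27 and 6.0 against 4.80 and 4.46, adjusted p = 0.0839). Pck1 and G6pc, the enzymes of glucose output, differed by -0.36 and -0.87 and were not called. The Tsc22d3 call ended without YAP library 1 (-1.76), YAP library 2 (-2.09), Mst library 2 (-1.63) or either Sox9 fl/fl YAP library (-1.92 each). Neither time of day nor feeding before isolation is stated in the labels.

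**Figure D3:**
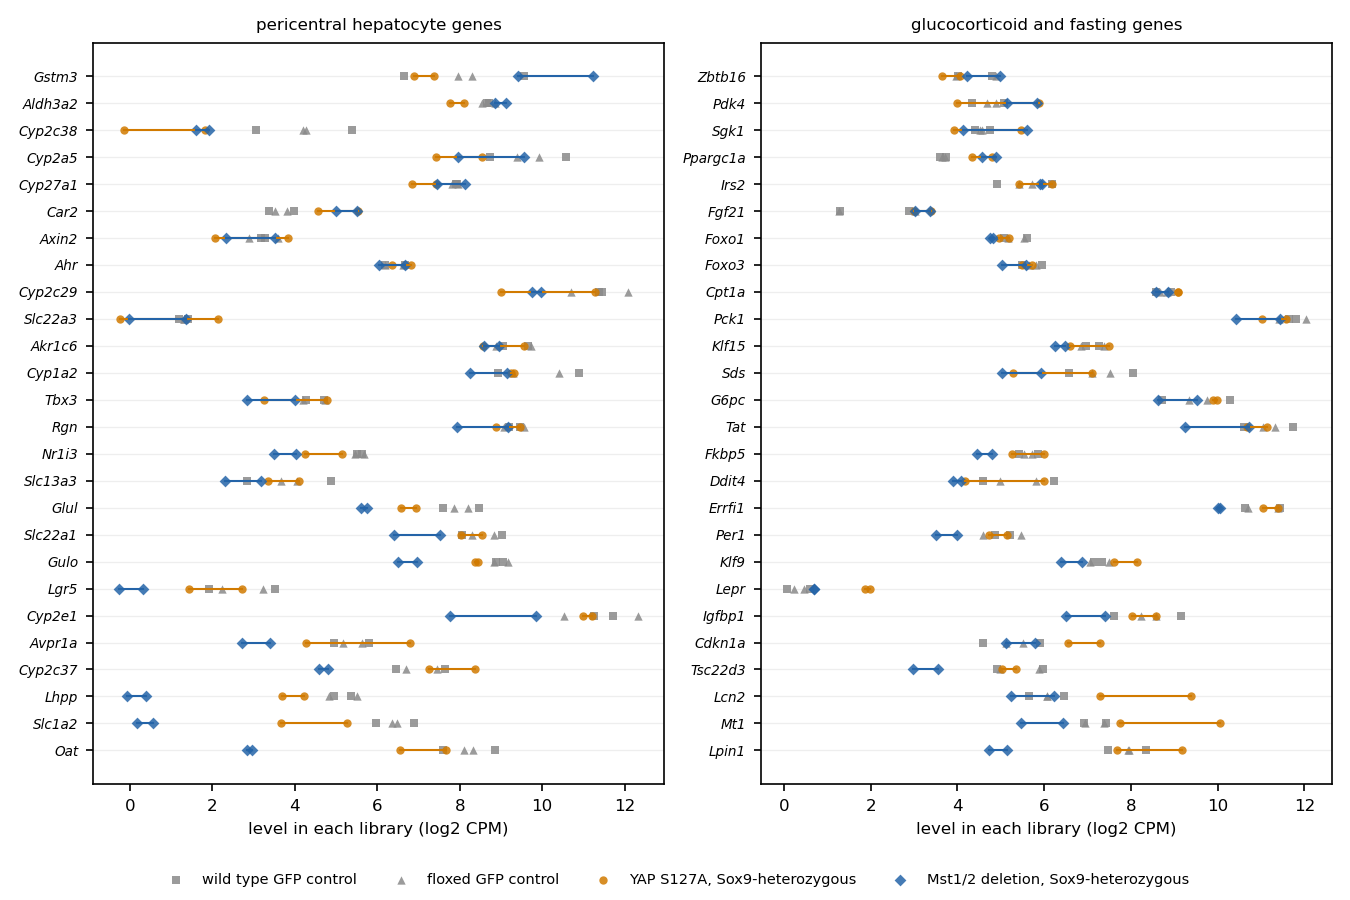
Level in each library (x axis, log2 CPM) of the 26 kept pericentral genes (left) and the 26 kept glucocorticoid and fasting genes (right), ordered by the difference between the models; grey marks are GFP control libraries, orange circles YAP S127A and blue diamonds Mst1/2 deletion, with a line joining the 2 libraries of a group. Toward the bottom of both panels the blue marks lie left of the orange ones, as for Oat, Slc1a2 and Lpin1.

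Part of the fasting list is shared with the acute phase response, and there a single library mattered. Mt1, the metal-binding metallothionein gene, was 7.74 and 10.06 in the YAP libraries and 5.46 and 6.44 in the Mst libraries (-2.95). Lcn2, a siderophore-binding protein of inflammation, was 7.28 and 9.39 against 5.24 and 6.22 (-2.60), and Steap4, a metalloreductase, 8.25 and 10.78 against 7.25 and 7.61 (-2.09). In all 3 genes YAP library 2 was more than 2 log2 units above YAP library 1. Of 32 kept acute phase genes 5 were called lower, where 1.38% of all genes were. Beside the 3 above these were Il1r1 (-1.67) and Stat3 (-0.99). The 32 genes had a median difference of -0.65. Their median level relative to the controls was 1.23 in YAP library 2, against -0.05 in YAP library 1 and -0.11 and 0.03 in the Mst libraries. Without YAP library 2 the median difference turned to 0.06 and 0 of the 32 were called (limma; Mt1 -1.79, Lcn2 -1.55, Steap4 -0.83). Without YAP library 1 limma called 9 acute phase genes lower, and when Mst library 1 or Mst library 2 was left out it called 2 lower, with 1 higher in the first case. Saa2, serum amyloid A2, showed the gap most, with 5.62 and 11.62 in the YAP libraries and no call (-3.69, limma adjusted p = 0.096). Lcn2 also ended without Mst library 1 (-2.12), and Steap4 without either Mst library (-1.91 and -2.27), either wild type control or either Sox9 fl/fl YAP library (-2.09 each). Il1r1 and Stat3 ended without YAP library 2 (-0.75 and -0.78), Mst library 1 (-1.72 and -0.95) or Mst library 2 (-1.61 and -1.04), and each also without any 1 of the wild type controls or Sox9 fl/fl YAP libraries, Stat3 besides without either floxed control.

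Direct YAP and TAZ targets were above the controls in both models, with medians of 1.29 in the Mst group and 1.09 in the YAP group. Of 21 kept targets 2 were called higher after Mst1/2 deletion and 0 lower, where 1.68% and 1.38% of all genes were. Without Mst library 2 limma called 0, without YAP library 1 it called 1 higher, and without YAP library 2 it called 1 each way. Ctgf, the secreted matricellular protein most used as a YAP readout, was 5.19 and 5.48 under YAP S127A and 7.22 and 7.02 after deletion, against a control mean of 0.83. Its difference was 1.78 ± 0.35 (limma adjusted p = 0.013), a 3.45-fold higher level, and the call ended without YAP library 1 (1.64) or Mst library 2 (1.89). Ajuba, a LIM protein that binds LATS, was 6.27 and 5.73 against 7.06 and 7.23 (1.15, adjusted p = 0.0331), and its call ended without YAP library 2 (0.88), Mst library 1 (1.23), Mst library 2 (1.07) or either wild type control (1.15 each). Cyr61, a close relative of Ctgf, overlapped between the groups with 8.70 and 7.11 against 8.14 and 9.08 (0.71). Other targets had the opposite order without a call, as Ptpn14 (-1.36), a phosphatase that binds YAP, and Nt5e (-1.94), an ectonucleotidase. Nt5e lay below its control mean of 4.16 in both models. The list median of 0.39 was -0.09 without YAP library 2.

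The 23 kept Hippo pathway genes had a median of -0.27. Of them, 2 were called lower after Mst1/2 deletion and 0 higher, where 1.38% and 1.68% of all genes were. Beside Yap1 this was Tead2, a TEAD factor gene with low levels of 2.79 and 0.90 against -0.97 and -0.10 (-2.38, limma adjusted p = 0.0348). Tead2 ended without YAP library 1 (-1.44), Mst library 1 (-1.94) or 2 (-2.82), either wild type control or either Sox9 fl/fl YAP library. Wwtr1, the TAZ gene, differed by 0.48. In the epidermal growth factor family, Nrg1, a ligand of ErbB receptors, was 5.78 and 6.26 against 7.14 and 8.28, far above its control mean of 2.41 in both models (1.68, adjusted p = 0.017). Erbb3, which binds that ligand, differed by 0.79 and was not called. Tgfbr2, the type 2 receptor of TGF-beta, was 6.58 and 6.71 against 5.63 and 5.31 (-1.18, adjusted p = 0.017), and the Mst libraries were at the control mean of 5.31. The Nrg1 call ended without YAP library 1 (1.45) or Mst library 2 (1.12), and that of Tgfbr2 without YAP library 2 (-1.11) or Mst library 2 (-1.02). Of 10 Notch pathway genes 0 were called by limma, where 3.05% of all genes were. At an unadjusted p under 0.05 there were 2, against 2041 of all 10681 genes.

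Biliary and progenitor genes had medians over the controls of 0.96 in the Mst group and 0.91 in the YAP group. By library the medians were 1.06 and 0.59 in the YAP group and 0.99 and 1.09 in the Mst group, and the summed linear levels were 4130 and 4850 against 6720 and 8000. Of 23 kept members, 1 was called higher and 1 lower after Mst1/2 deletion, where 1.68% and 1.38% of all genes were. The 23 had a median of 0.25. At an unadjusted p under 0.05, 7 were higher and 1 lower, against 2041 of all 10681 genes in either direction. Krt23, a keratin, was 3.89 and 3.16 against 5.37 and 6.29, with a control mean of 1.91 (2.31 ± 0.45, limma adjusted p = 0.0128). Epcam, the surface protein used to remove biliary cells in the sort, was 3.14 and 2.14 under YAP S127A and 0.83 and 1.05 after deletion, where the control mean was 0.83 (-1.70, adjusted p = 0.0338). All 4 control libraries and Mst library 1 had the same Epcam value of 0.83, Mst library 2 lay just above it, and both YAP libraries lay above all of these. Spp1, osteopontin, was 10.71 and 11.22 against 11.59 and 11.56 and was not called (0.61, adjusted p = 0.412). Sox4 (1.04) and Bicc1 (1.20), genes of immature ducts, were higher in both Mst libraries without a call. Krt23 ended without YAP library 2 (1.94) or Mst library 2 (1.85). Epcam ended without YAP library 1 (-1.20), either Mst library (-1.59 and -1.82) or either floxed control library (-1.70 each).

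Genes of fetal liver and liver tumours differed in both directions. Of 20, 3 were called higher and 2 lower, where 1.68% and 1.38% of all genes were. Ly6d, a surface protein reported in liver injury and cancer, was 6.48 and 7.31 against 8.80 and 9.71, above the control mean of 4.98 in all 4 libraries (2.36, limma adjusted p = 0.0116). Robo1, a guidance receptor, differed by 2.42 and Tff3 by 2.84. Akr1c18, a steroid dehydrogenase, was 1.70 and 1.79 against -0.40 and -0.03 (-1.96). Meg3, an imprinted noncoding RNA, differed by -2.51. H19, another imprinted RNA, was 5.85 and 6.21 against 4.49 and 4.91 (-1.33, adjusted p = 0.0922), and Gpc3, a fetal proteoglycan, 6.02 and 4.33 against 3.42 and 4.02 (-1.46, adjusted p = 0.096). These 2 were above their control means in every library, and the YAP libraries were higher. Ly6d ended without YAP library 1 (1.95) or Mst library 2 (1.91), and Robo1 without YAP library 2 (1.75) or Mst library 1 (1.52). Tff3, Akr1c18 and Meg3 ended without any 1 of the 4 compared libraries, at 2.28 to 3.40, -2.14 to -1.77 and -2.96 to -2.06. Akr1c18 also ended without any 1 control library, Meg3 without either floxed control or Sox9 fl/fl YAP library, and Tff3 without either wild type control.

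Of 40 DNA replication and G1/S genes, 3 were called lower after Mst1/2 deletion and 0 higher, where 1.38% and 1.68% of all genes were. Calls fell to 1 lower without YAP library 1 (with 1 higher), YAP library 2 or Mst library 1. The median over the controls was 0.08 for the Mst group and 0.50 for the YAP group. The median difference of -0.41 lay between -0.56 and -0.16 under the alternatives computed for list medians. Rrm2, a subunit of ribonucleotide reductase, was 5.71 and 5.12 against 3.31 and 4.31 (-1.61, limma adjusted p = 0.0267). E2f8, an atypical E2F factor of polyploid hepatocytes, was 3.01 and 4.38 against 1.82 and 0.10 (-2.73, adjusted p = 0.0155), with the Mst libraries below the control mean of 3.22. Mcm7, of the replicative helicase, differed by -1.22, a call that ended without any 1 of the 4 compared libraries (-1.42 to -1.02), the wild type controls or the Sox9 fl/fl YAP libraries. Of 39 G2/M genes limma called 0, where 3.05% of all genes were called. At an unadjusted p under 0.05 there were 6, all lower, against 2041 of all 10681 genes in either direction. Of the 39 differences 32 were negative. The median of -0.49 was -0.08 without YAP library 1 and -0.11 without Mst library 1, with 16 of 39 differences positive in each case. Without YAP library 2 or Mst library 1, 1 gene was called lower. Their medians over the controls were 1.90 and 1.11 in the YAP libraries and 0.75 and 1.32 in the Mst libraries, so YAP library 1 was highest and YAP library 2 lay within the range of the Mst group. Mki67, a marker of cycling cells, was 5.59 and 5.23 against 4.57 and 3.28 (-1.48, adjusted p = 0.096). Rrm2 ended without YAP library 1 (-1.32) or Mst library 1 (-1.11), and E2f8 without YAP library 2 (-2.05) or Mst library 2 (-1.87).

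Among 27 p53 target and apoptosis genes, 3 were called higher after Mst1/2 deletion, where 1.68% of all genes were: Plk2, Gdf15 and Bcl2. Gdf15, a stress-induced circulating factor, was 6.10 and 6.67 against 8.47 and 8.37, with a control mean of 6.71 (2.03, limma adjusted p = 0.0244). Bcl2, an inhibitor of apoptosis, was 2.58 and 2.51 against 3.68 and 4.00 (1.29), above its control mean of 0.69 in both models. Cdkn1a, the p53-induced cell cycle inhibitor p21, had the opposite order, 6.55 and 7.30 against 5.80 and 5.12, and just missed the threshold (-1.47, adjusted p = 0.0505). Of 27 immediate early genes, Klf6 and Egr1 were called higher and Gadd45g lower, where 1.68% and 1.38% of all genes were. Egr1, a zinc finger factor induced within minutes of a stimulus, was 7.79 and 7.11 against 9.08 and 8.70 (1.44, adjusted p = 0.016). The list median of 0.33 was -0.01 without YAP library 2. The calls of Gdf15 (1.75 to 2.31), Gadd45g (-2.02 to -1.47) and Bcl2 (1.13 to 1.45) ended without any 1 of the 4 compared libraries, and that of Bcl2 also without either Sox9 fl/fl Mst library. Egr1 ended without YAP library 2 (1.10) or Mst library 1 (1.25).

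In metabolism, few genes were called. Of 21 cholesterol synthesis genes 2 were called higher after Mst1/2 deletion, where 1.68% of all genes were. Among them was Mvd, a decarboxylase of the mevalonate pathway (1.24, limma adjusted p = 0.0129). The 21 genes had a median of 0.42 that stayed between 0.22 and 0.49. Cyp39a1, a hydroxylase of oxysterols, was 6.23 and 6.16 against 3.93 and 4.18, and the control mean of 4.51 was near the Mst group (-2.13 ± 0.26, adjusted p = 4.84e-04). Csad, of taurine synthesis, was 6.91 and 5.53 against 7.87 and 8.70, with the YAP libraries well below the control mean of 8.70 (2.07). Elovl6, a fatty acid elongase, differed by 1.64. Bile acid genes (25 kept), liver-enriched transcription factors (23) and fatty acid oxidation genes (29) had 0 calls by limma. Complement and coagulation factors (36) and subunits of oxidative phosphorylation (49) also had 0. Over all genes 3.05% were called, so 0 calls in lists of this size lie near that share. In the same order 4, 6, 2, 1 and 5 genes had an unadjusted p under 0.05, against 2041 of all 10681. Chac1, a glutathione-degrading enzyme of the amino acid stress response, was 3.36 and 4.04 against 1.14 and 0.35 (-2.96, adjusted p = 0.00127). Mvd ended without YAP library 2 (1.15) or Mst library 1 (1.04), and Csad without YAP library 2 (1.38) or Mst library 2 (1.65). Elovl6 ended without any 1 of 7 of the 12 libraries, lowest at 0.77 without YAP library 1.

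Over all genes, 1.68% were called higher and 1.38% lower. Of 29 matrix genes 1 was called higher after Mst1/2 deletion. Of 42 genes of the actin cytoskeleton, integrins and junctions 2 were called higher and 1 lower. In the second list 11 were higher and 2 lower at an unadjusted p under 0.05, against 2041 of all 10681 genes in either direction. Nid1, the basement membrane protein nidogen, was 9.45 and 8.27 against 10.49 and 11.05, with a control mean of 5.13 (1.91, limma adjusted p = 0.0244). Anxa5, a phosphatidylserine-binding protein, was 9.04 and 8.90 against 10.31 and 11.30 (1.84, adjusted p = 0.0182). Both were above their controls in all 4 libraries. Ezr, ezrin, had the opposite order, 5.01 and 5.52 against 3.49 and 3.81 (-1.61, adjusted p = 0.0234). Ocln, the tight junction protein occludin, was 5.45 and 4.63 against 6.49 and 6.08, around a control mean of 5.64 (1.25, adjusted p = 0.0314), and ended without YAP library 2 (0.83), Mst library 1 (1.04) or Mst library 2 (1.45). The 29 matrix genes as a list had a median of -0.24 that turned to 0.38 without YAP library 1. Nid1 ended without YAP library 2 (1.32) or Mst library 2 (1.62), Anxa5 without either YAP library (1.90 and 1.77) or Mst library 2 (1.34), and Ezr without YAP library 2 (-1.36) or either Mst library (-1.46 and -1.77).

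**Figure D4:**
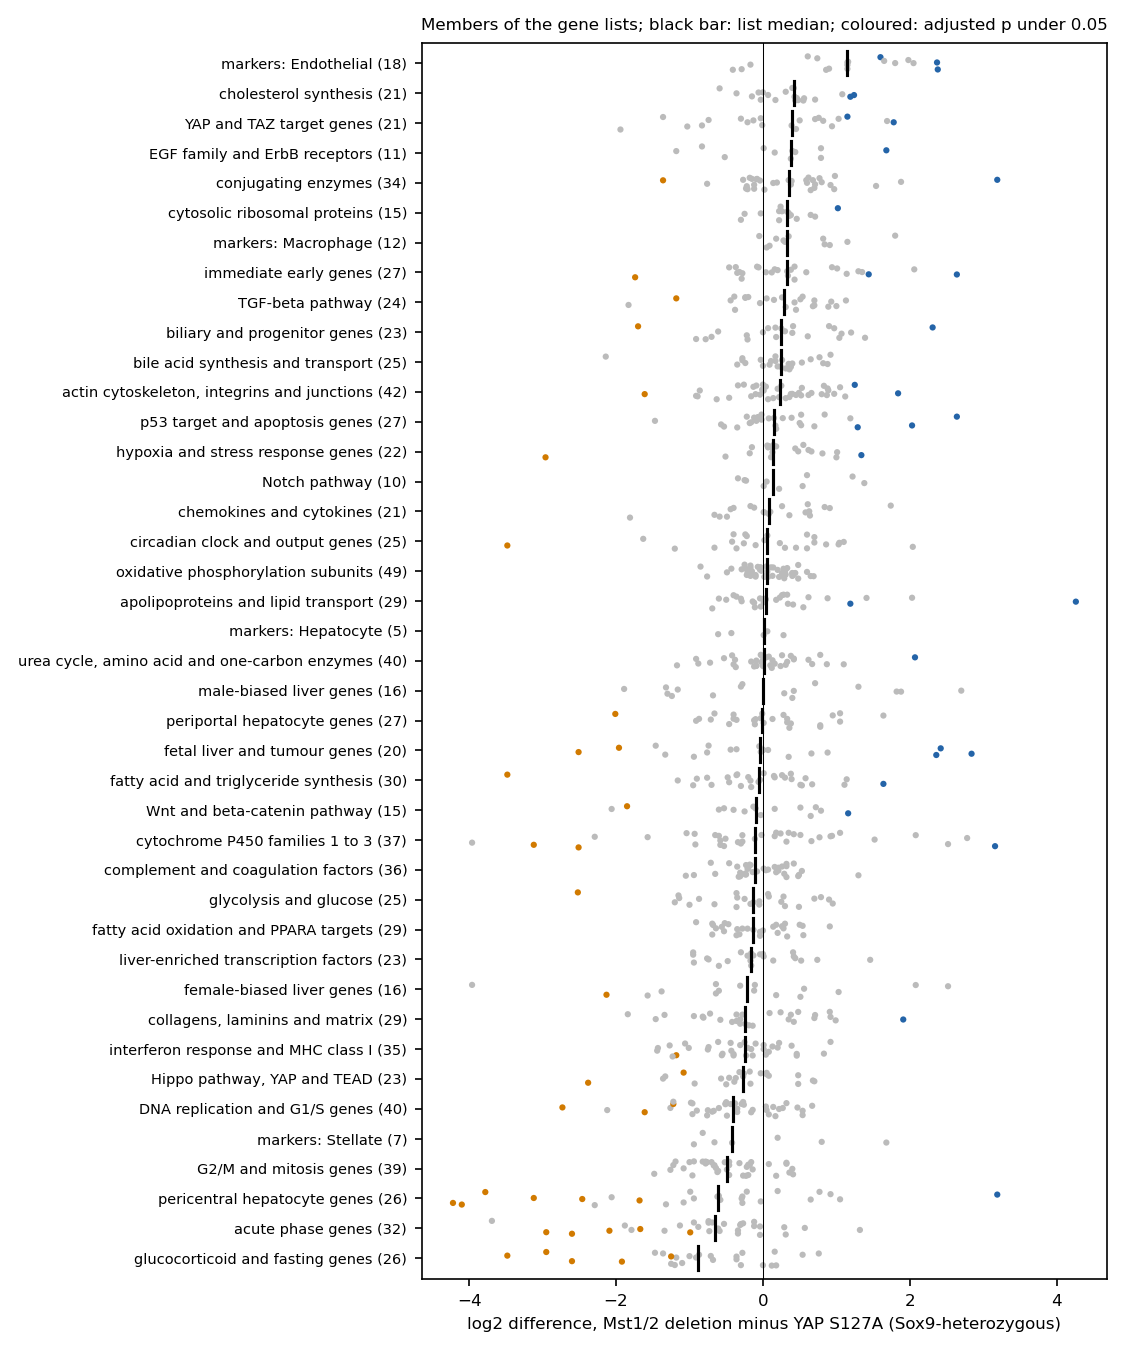
Log2 difference between the models (x axis, Mst1/2 deletion minus YAP S127A) for each kept member of the gene lists and cell type marker lists with at least 5 kept members, ordered by the list median (black bar); blue and orange points are genes called higher and lower. Pericentral, acute phase and fasting genes lie at the bottom, with medians of -0.61, -0.65 and -0.89, and endothelial markers at the top with 1.15.

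Markers of other cell types were read in the same 4 libraries. The sort required a fluorescent reporter set by TBG-driven virus, which selects against endothelial cells, and had no endothelial marker among its exclusions. Differences of endothelial markers were positive in 15 of 18 kept genes, with a median of 1.15. In 12 of 18 both Mst libraries lay above both YAP libraries, against 21.9% of all genes. Like the other lists, this one was chosen with earlier results of these data known. Stab2 (2.38), Eng (2.37) and Cdh5 (1.60), genes of endothelial cells, were called higher, where 1.68% of all genes were. The summed linear level of the list was 264 and 160 in the YAP libraries and 531 and 661 in the Mst libraries, against 45.1 to 119 in the 4 controls. Pecam1, a pan-endothelial marker, overlapped between the groups (2.78 and 3.46 against 4.07 and 1.35), and no kept marker was under log2 0 in all 4 libraries. The median stayed between 0.90 and 1.81 with any of the 4 compared libraries left out, and 0 markers were called without YAP library 2 or without Mst library 2 (Stab2 2.53 and 1.92, Eng 1.60 and 1.84, Cdh5 1.45 and 1.71). Cdh5 also ended without YAP library 1 (1.75) or Mst library 1 (1.49), and Stab2 without YAP library 1 (2.24). The part of endothelial RNA in the genes higher in the Mst group was not tested. In these bulk libraries fewer cells of a type and less RNA per cell cannot be told apart. Macrophage markers were positive in 11 of 12 with 0 limma calls, 0 of them at an unadjusted p under 0.05, and a median of 0.33, and their summed level was 54.7 in both YAP libraries, 51.6 in Mst library 1 and 161 in Mst library 2. Stellate markers had 0 limma calls among 7, with 1 at an unadjusted p under 0.05, against 326 and 2041 of all 10681 genes. Ptprc, the CD45 gene, differed by 0.01 and lay between 0.47 and 0.70 in all 4 libraries. Its linear level was 1.51 and 1.47 in the YAP libraries and 1.62 and 1.38 in the Mst libraries. The wild type controls had 1.52 and 1.48 and the floxed controls 1.62 and 1.38. A level this low and this alike in the controls says little about leukocyte RNA. Of the markers of T and NK cells, B cells and neutrophils, 0 were kept. Hepatocyte markers summed to 56700 and 56800 in the YAP libraries and 53100 and 55800 in the Mst libraries, with 0 of 5 called by limma and 0 at an unadjusted p under 0.05.

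The contrast was repeated in the libraries with both Sox9 alleles floxed, whose levels do not enter the Sox9-heterozygous difference. The repeat is not independent of the first contrast, because all 12 libraries set the variance of both and the adjustment of the deposited values could have shifted both alike. There 269 genes were called (2.52%), 128 higher and 141 lower after Mst1/2 deletion. Of the 179 genes called higher in the heterozygous libraries, 174 had the same sign and 66 were called there too, which is 36.9% of the 179 and 51.6% of the 128. Of the 147 called lower, 138 had the same sign and 48 were called, which is 32.7% of the 147 and 34.0% of the 141. The same sign was found in 72.9% of all genes. None of the 326 was called in the opposite direction. Ntrk2 gave 6.30, Lpl 4.17, Cib3 4.69, Klf6 2.70, Tlr12 -3.13, Slc1a2 -3.05 and Oat -2.61, each called in these libraries too. Pericentral genes had a median of -0.26 there, and the glucocorticoid and fasting genes -0.47. Acute phase, G1/S and G2/M genes also kept their sign, with medians of -0.14, -0.39 and -0.41. Lists that changed sign included YAP and TAZ targets, at -0.09 against 0.39 in the heterozygous libraries. Biliary and progenitor genes gave -0.18 against 0.25, and cholesterol synthesis genes -0.30 against 0.42. Endothelial markers gave 0.39 with 0 calls, against 1.15.

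Other genes had values that were farther apart between the genotypes. Mt1 gave 0.43 and Pfkfb3 0.13 in the Sox9 fl/fl libraries, against -2.95 and -2.52 in the heterozygous ones, and Bcl6 0.87 against 3.62. Sec22a, a gene of vesicle transport, gave -0.78 against 2.06. Egr1 and Gdf15 went the other way, with 3.90 and 4.03 against 1.44 and 2.03. The Egr1 levels of the Sox9 fl/fl libraries were 4.79 and 4.76 under YAP S127A and 8.86 and 8.48 after Mst1/2 deletion, so the low values were those of the YAP libraries. The difference between the 2 contrasts was itself tested and passed for 0 genes by limma, with 322 at an unadjusted p under 0.05, and the smallest adjusted p was 0.127, shared by Egr1, Sec22a, G0s2 and Ube2o. Without YAP library 1 of the heterozygous group 18 genes passed. Mt1 (adjusted p = 0.483), Pfkfb3 (0.255) and Bcl6 (1.0) did not pass, so a dependence on the Sox9 genotype was not shown for them.

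**Figure D5:**
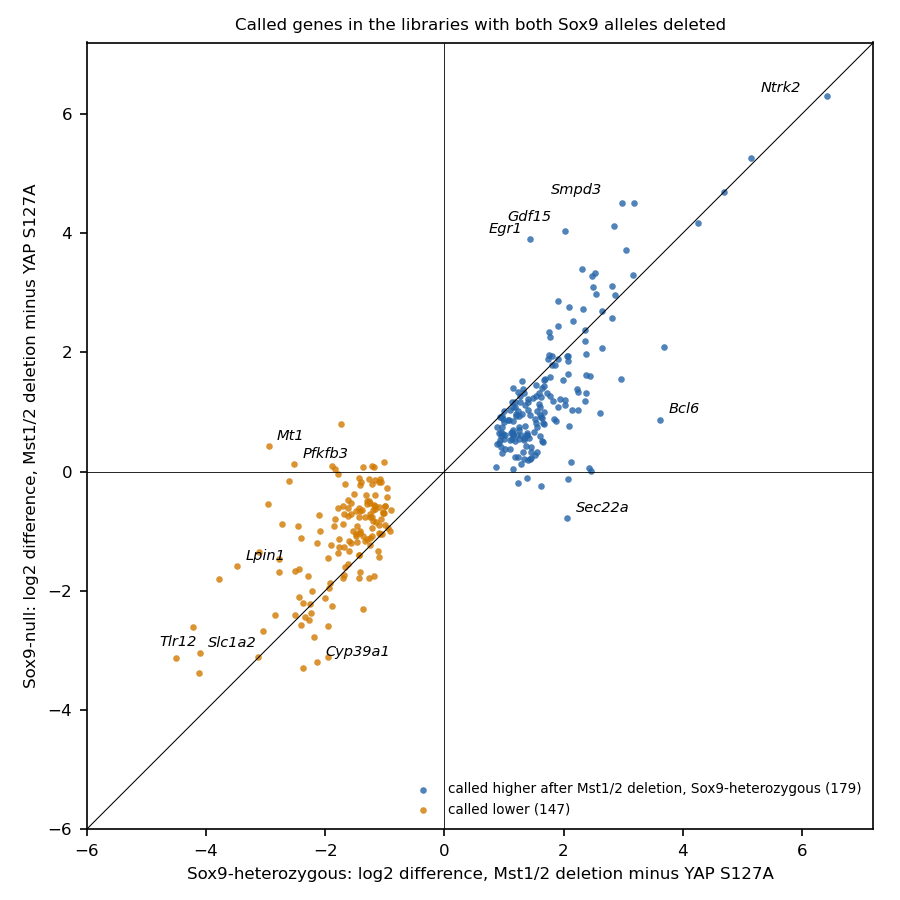
Log2 difference between Mst1/2 deletion and YAP S127A in the Sox9-heterozygous libraries (x axis) and in the Sox9 fl/fl libraries (y axis) for the 179 genes called higher (blue) and the 147 called lower (orange) in the heterozygous contrast; the diagonal marks equal differences. Of the 326 points, 174 blue and 138 orange ones have the same sign on both axes, with Ntrk2 on the diagonal and Mt1 and Pfkfb3 near 0 on the y axis.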

How the data were processed

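Messenger RNA of sorted hepatocytes was read on an Ion S5 after amplification with the Ion AmpliSeq mouse panel, per the labels. The authors deposited 1 table of log2 CPM. The sources used here name no aligner, counting tool or build. In the table, control means of the 2 experiments were equal (98.9% of kept genes within 0.05). As the values show, library deviations were whole multiples of 1 step per gene. If the original step was 0.005, which is an assumption, they had been rescaled by 1 factor per gene (median 1.58). On that assumption the rescaling raised the median SD within groups from 0.187 to 0.288, and it would bear on every p-value.

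The filter kept 10681 genes that reached log2 1 in 2 or more of the 12 libraries. limma 3.58.1 in R 4.3.3 fitted 1 mean per group over all 12 libraries with a trended prior variance, without covariates, after a test on simulated data. Named genes were Sox9, Stk4, Stk3 and Yap1, the 16 largest called differences each way without overlap and whose higher group averaged 4 or more, and up to 4 members of each list by size. Called list members and genes described as examples outside that rule were chosen after their values were seen. The members and lists were chosen with earlier results of these data known. Alternatives were other scalings, filters, a pseudocount, variance settings, a replicate block and each library left out. List medians were not recomputed with only the compared libraries, without the trend in the prior variance or as a difference of differences. GENCODE M21 gave positions and RefSeq promoters. The values of 1 called list member are not reported here.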

Additional observations from a re-analysis of the deposited data

How the results depend on the processing

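In the Sox9-heterozygous contrast the 326 calls became 78 with no filter on low values, which tests more genes, and 171 with no trend in the prior variance. They became 2699 with the deviations before the inferred rescaling and 21 as a difference of differences from the controls. In the Sox9 fl/fl contrast the 269 calls became 69, 165, 2173 and 29 under the same settings. The difference between the contrasts, with 0 calls, had 3 with the replicate block and 58 with the deviations before the inferred rescaling. With each library left out the counts ran from 82 to 324, from 95 to 448 and from 0 to 18. The low of 82 came without Mst library 2, and 71 of the 78 calls with no filter were among the 326. Replicate numbers did not pair the YAP and Mst libraries (correlation of deviations -0.071). Within the Mst experiment, where first and second library means are equal, same-numbered deviations correlated at -0.644, -0.521 and -0.315. The replicate block gave 284 calls in place of 326 and 250 in place of 269, and among the calls it ended were Epcam (adjusted p = 0.0531), Bcl2 (0.0571) and Hspa5 (0.0655) by limma. Over 159 named genes the direction reversed in 4 results, none of them called: Stk4 (0.06 without Mst library 1, leave-one-out range -0.43 to 0.06), Nrg4 (0.06 without YAP library 2, range -1.72 to 0.06), Cyp4a14 (1.05 without YAP library 1, range -2.87 to 1.05) and Pygl (0.10 without Mst library 2, range -2.39 to 0.10). A further 290 results dropped below the threshold and 196 came over it, while 3004 kept direction and side. Where the number of genes or libraries does not give it, the cause was not tested. Read depth is unknown, so no counting error could be given, and 2 libraries per group limit every comparison.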

Other observations

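Genes of protein folding and export from the endoplasmic reticulum were among the calls higher after Mst1/2 deletion. They were chosen after their values were seen and carry no test as a group. Hspa5, the chaperone BiP, was 9.60 and 9.84 in the YAP libraries and 11.20 and 10.94 in the Mst libraries, around a control mean of 10.20, a difference of 1.34 (limma adjusted p = 0.0477). Hyou1, a further chaperone of that compartment, was 6.36 and 6.77 against 8.74 and 8.16 (1.88, adjusted p = 0.00454). Manf differed by 1.32, Sdf2l1 by 1.5, Creld2 by 1.62 and Magt1, of the glycosylation machinery, by 1.23. For Hspa5, Hyou1, Manf and Sdf2l1 the YAP libraries were below and the Mst libraries above the control mean. In the Sox9 fl/fl libraries the differences were smaller and not called, with 0.21 for Hspa5, 0.84 for Hyou1, 0.33 for Manf, 0.66 for Sdf2l1, -0.24 for Creld2 and 0.24 for Magt1. The Hspa5 call ended in 16 of 22 alternatives, among them any 1 of the 4 compared libraries left out (1.22 to 1.47). Without YAP library 2 the calls of Manf (1.41), Sdf2l1 (1.31) and Creld2 (1.62) ended, and without Mst library 2 those of Sdf2l1 (1.41) and Magt1 (1.19). Manf and Creld2 also ended without YAP library 1 (1.23 and 1.61) or Mst library 1 (0.94 and 1.22), and Manf without either wild type control. Hyou1 stayed called with any library left out.

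Tardbp, the RNA-binding protein TDP-43, was 7.68 and 8.49 under YAP S127A and 6.23 and 5.45 after Mst1/2 deletion, with a control mean of 5.94 (-2.24, limma adjusted p = 9.85e-04). The Sox9 fl/fl libraries gave -2.38 (adjusted p = 5.48e-04), and the YAP libraries were the ones above the control. The replication-dependent histone genes Hist1h1a (-2.22), Hist1h2ak (-2.44) and Hist1h2bb (-1.93) were called lower as well, at low levels of 0.70 to 2.05 in the YAP group and of -1.30 to 0.05 in the Mst group. Their sequences are near-identical to other histone genes, so these values are uncertain. All 3 ended without YAP library 1 (-1.57, -1.96 and -1.62), Mst library 1 (-2.02, -2.08 and -1.69) or Mst library 2 (-2.42, -2.80 and -2.17), and Hist1h1a and Hist1h2bb also without others. Aox3 and Aox1, aldehyde oxidases, were called higher after deletion (2.07 and 1.36). For both, the Mst libraries were near the control means of 9.46 and 7.35 and the YAP libraries below them. Aox3 ended without any 1 of the 4 compared libraries (1.88 to 2.26), and Aox1 without YAP library 2 (0.83), Mst library 2 (1.18) or either wild type control.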
